A study of Glycine max with 108 samples.

Results

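In soybean leaves, 150 genes were chosen because their transcripts were far more abundant when salinity and acidity were applied together than under either stress alone or without stress. They were taken from 55392 rows with a GLYMA identifier, which remained of 55897 after rows holding both 0 and at least 10 FPKM inside any group were dropped (FPKM, mapped fragments scaled to transcript length and library size). For each row the score was the group mean of log2(FPKM + 1) in the salinity and acidity leaves minus the highest of the group means of salinity alone, acidity alone and control leaves, and the 150 highest scores were kept. The genes were thus chosen by their levels in these 4 leaf treatments, which are described without a test. The tests that follow use the other 14 leaf treatments and the flowers.

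The plants were soybean, Glycine max cultivar Magellan, with seeds coated with the nodulating bacterium Bradyrhizobium japonicum, sampled at 31 days. Stressed plants received salinity (15 mM NaCl), acidity (pH 4), water deficit (irrigation at 30% of the water available for transpiration), low phosphate (reduced by 90%) or cadmium (300 µM CdCl2), while control plants received none of these and full irrigation. The 18 treatments of each organ were the 5-stress combination with cadmium, the 4-stress combination without it, 4 combinations of 3 stresses, 6 pairs, the 5 single stresses and the control. The labels give 3 replicates per treatment, each 1 library from the leaves or flowers of 5 to 7 plants, which were combined before extraction. The pH and the size of the phosphate cut are stated for the single stresses, not for their combinations. The p-values measure the spread between these pooled samples.

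Salinity lowers the water potential around roots and lets sodium and chloride build up in leaves, and an acid root medium exposes roots to protons and alters the uptake of mineral nutrients. Leaves respond to such root stresses through hormones, water status and ion content. Whether these routes take part in the pattern of the chosen genes was not tested. The files pair no identifier with a gene name, and 0 of the 150 identifiers matched the RefSeq gene table for assembly Glycine_max_v4.0, so the genes are given by identifier and without roles. For the same reason leaf identity was not checked against marker genes.

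Leaves gave 53 libraries and flowers 51, after 1 leaf column (control replicate 3) and 3 flower columns that equalled the mean of the other columns of their group were left out. Control leaves and, among flowers, those with acidity alone, with water deficit alone and with 4 stresses therefore had n = 2. The FPKM values summed to between 617269 and 713376 per leaf library and between 611857 and 680482 per flower library. Relative depth, read from the steps of low values with 1 as the median, ranged from 0.868 to 1.22 over leaf libraries with 0.868 to 0.969 in the salinity and acidity leaves against 1.15 to 1.22 in control leaves, and its part in the levels was not tested. Total read numbers are not given in the sources used here, so no counting intervals were computed.

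The 150 genes together took between 1.58% and 1.68% of the summed FPKM in the salinity and acidity leaves, against means of 0.105% in salinity leaves, 0.0471% in acidity leaves and 0.0371% in control leaves. Their median level was 5.05 on the log2(FPKM + 1) scale with both stresses, against 1.44 with salinity, 0.80 with acidity and 0.67 in control leaves. Scores ran from 2.91 to 7.52. In the heat map of all members, the 3 salinity and acidity libraries hold the highest values in 128 rows.

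**Figure D1:**
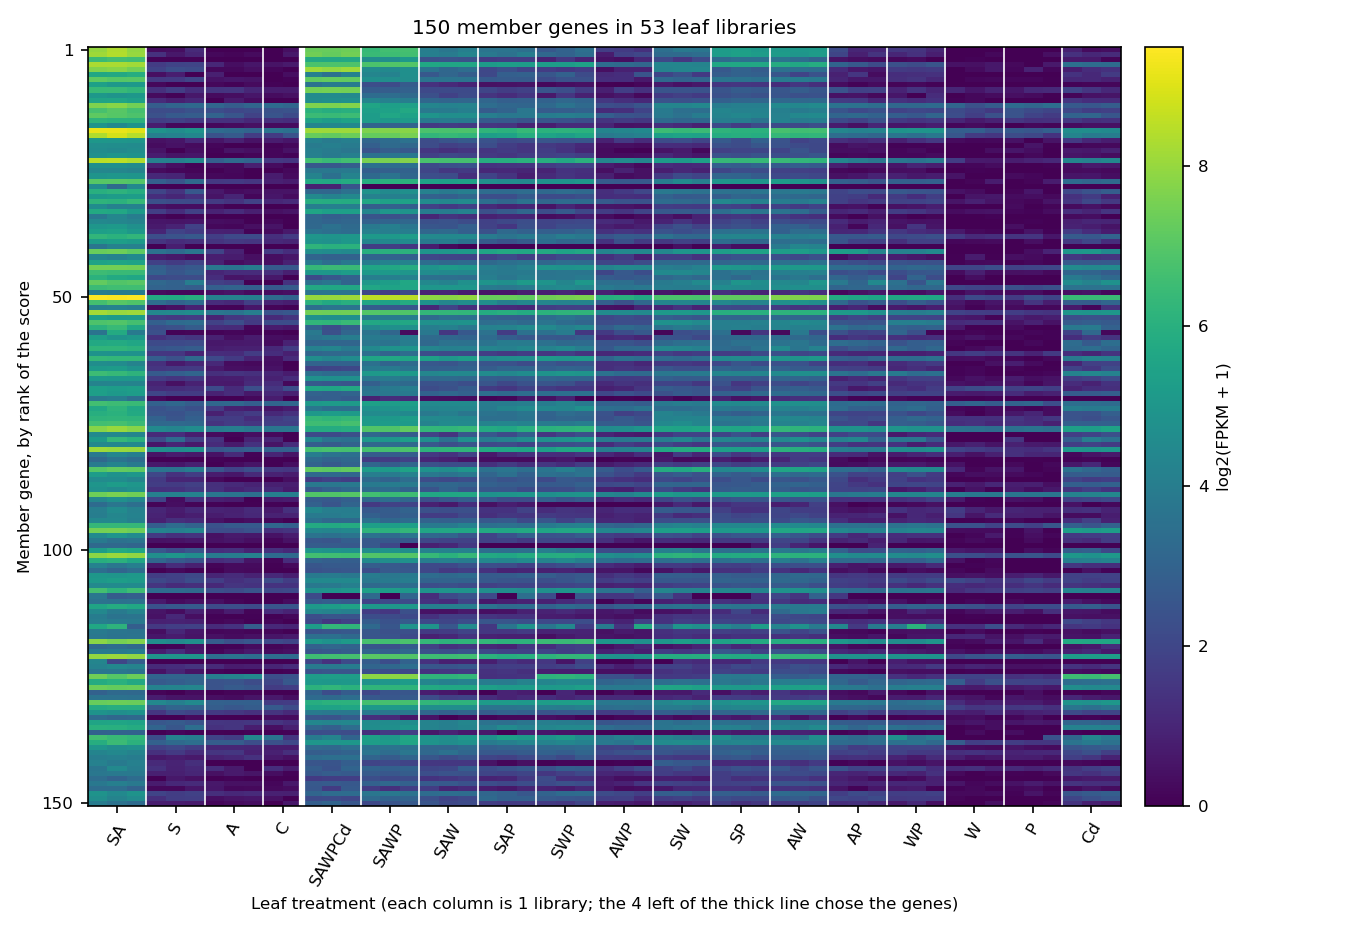
Level of each of the 150 genes (rows, ordered by score) in each of the 53 leaf libraries (columns), as log2(FPKM + 1) in colour. Treatments are coded S salinity, A acidity, W water deficit, P low phosphate, Cd cadmium and C control; the 4 treatments left of the thick line chose the genes, and the members' median is 5.05 under SA and 0.67 under C.

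GLYMA_07G243700 had the highest score, at 7.52, and GLYMA_07G243500 the next, at 7.20. GLYMA_07G243500 had 283, 332 and 258 FPKM with salinity and acidity, against 1.53, 0.523 and 0.999 FPKM with salinity, 0.146, 0.0808 and 0.209 FPKM with acidity, and 0 and 0.520 FPKM in control leaves. The 3 libraries with both stresses lay far above the other 8. Among these, salinity lay above acidity and control, by as little as 0.523 against 0.520 FPKM, and acidity and control overlapped. GLYMA_16G173000 had the highest level of all members with both stresses. It was at 717, 685 and 705 FPKM there, against 54.6, 53 and 61.5 FPKM with salinity, 17.1, 16.8 and 16 FPKM with acidity, and 8.82 and 7.22 FPKM in control leaves. This gene, picked after its values were seen, already differed between the single stresses and control, which the score does not prevent.

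At the lower end of the list, the last genes taken in, GLYMA_07G103800 and GLYMA_09G051900, had scores of 2.91 and 2.91, and the first rows left out, GLYMA_08G118900 and GLYMA_12G200000, had 2.90 and 2.88. The list thus ends within a continuous range of scores. Since a pseudocount of 1 damps low values, a pseudocount of 0.1 in the score gave a list sharing 84 of the 150 genes, while other changes shared between 138 and 150. In 128 of the 150 genes every salinity and acidity library lay above each of the 50 other leaf libraries. That held for 8.27% of the 55392 rows, and because the rule used these libraries nothing is read from the difference. In 11 of the remaining 22 genes the 5-stress mean was the higher.

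By the choice of genes, the rise in the salinity and acidity pair held against control and the parts of the pair. It was not a rise in the pair alone. In each other combination, between 82 and 150 of the genes had a group mean above those of control, salinity and acidity. All 150 genes were above the highest of control, salinity and acidity in both the 5-stress and the 4-stress combination, although for GLYMA_02G028600 the 4-stress values are far below what 1 read is worth. All but 1 were above it with acidity and water deficit and all but 1 with salinity and low phosphate, and 145 were with salinity and water deficit. Fewer were with acidity and low phosphate (89), with acidity, water deficit and low phosphate (85) and with water deficit and low phosphate (82). Among single stresses, 99 genes were above it with cadmium, 7 with water deficit and 4 with low phosphate. The share of the rise from control to the salinity and acidity pair that was reached in another treatment had a median over the genes of 74.0% with 5 stresses, 70.7% with 4 stresses, 53.3% with salinity, acidity and water deficit, 52.6% with acidity and water deficit and 46.4% with salinity and low phosphate. These counts and shares use the levels that chose the genes. They stand without a value over all features and are a description.

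The median share was 43.7% with salinity, water deficit and low phosphate, 43.1% with salinity, acidity and low phosphate and 38.4% with salinity and water deficit. Lower shares were found in the other treatments. The median was 16.6% with acidity and low phosphate, 16.9% with water deficit and low phosphate and 17.7% with acidity, water deficit and low phosphate. Cadmium alone gave 20.5%. Water deficit alone and low phosphate alone lay below control. Their medians were 0.28 and 0.26 on the log2(FPKM + 1) scale, against 0.67 in control leaves. With these stresses 117 and 119 of the 150 genes had lower group means than in control. Control had n = 2 and took part in the choice, and all these levels are low. No count over all features stands beside these counts, so they are a description. As the plot by leaf treatment shows, the library medians ran from 3.81 to 3.91 in 5-stress leaves and from 3.81 to 3.89 in 4-stress leaves. The spread was widest with acidity and low phosphate, from 1.50 to 1.81, and it ran from 0.63 to 0.88 with acidity alone and from 1.37 to 1.61 with acidity, water deficit and low phosphate.

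**Figure D2:**
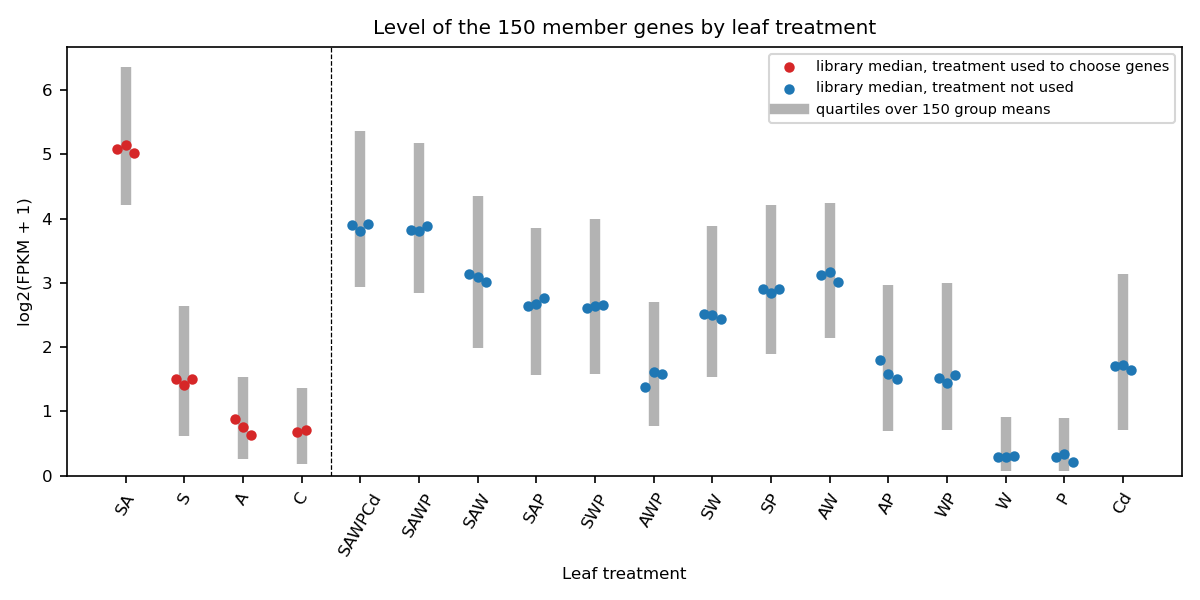
Median level of the 150 genes in each leaf library (points) and quartiles of the genes' group means (bars), on the log2(FPKM + 1) scale, by treatment. The SA libraries lie between 5.03 and 5.15, and the highest treatments that the choice did not use are the 5-stress and 4-stress combinations.

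The first tested question was what a second stress did to these genes where water deficit or low phosphate was already present, using libraries that had no part in the choice. Of the 150 genes, 145 averaged 1 FPKM or more over the 42 libraries of those 14 treatments and were tested. A gene can pass that filter through the treatments where it is high, so counts are given out of all 150 genes. Counts of called genes in a single comparison stand beside the share of all 28582 tested features called in the same direction. Differences are given as log2(FPKM + 1), where changes of low genes come out too small, and calls are limma calls at a Benjamini-Hochberg adjusted p under 0.05.

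Adding acidity to water deficit raised 144 of the 150 genes, with a median difference of 2.44 (0.12 over all tested features), while 38% of all tested features were called higher and 21.6% lower. The lowest difference of a tested member was 0.50. Adding salinity to water deficit raised 135 genes (28.4% of all tested features) and lowered 1 (25%), GLYMA_07G144100, with a median of 1.91. Adding salinity to low phosphate raised 142 genes (31.1% of all tested features, with 25.4% lowered), with a median of 2.29. Adding acidity to low phosphate raised 105 genes (30.6% of all tested features) and lowered 1 (23.8%), with a median of 0.98. All these medians lay far from those of all features, which were between 0.01 and 0.12. The combination of water deficit with low phosphate raised 106 genes over water deficit alone (17.1% of all tested features) and 105 over low phosphate alone (17.6%), with medians of 0.98 and 1.00, and lowered 4 and 1 (26.2% and 34.5% of all tested features). In all 6 comparisons 92 of the members were called higher, and the share of all tested features called so in all 6 was not computed.

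GLYMA_07G243500 shows the steps. It was at 35.8, 30.6 and 36.0 FPKM with acidity and water deficit and at 8.76, 8.62 and 9.58 FPKM with salinity and water deficit, against 0, 0 and 0.165 FPKM with water deficit alone. The 3 groups did not overlap. The difference from water deficit was 5.06 (SE 0.22, limma adjusted p = 3.84e-19) for acidity and 3.25 (SE 0.22, limma adjusted p = 5.85e-14) for salinity. On low phosphate, it was at 36.6, 40.8 and 36.7 FPKM with salinity and at 2.91, 0.766 and 1.71 FPKM with acidity, against 0, 0 and 0.315 FPKM with low phosphate alone, a difference of 5.15 (SE 0.22, limma adjusted p = 2.73e-19) for salinity and 1.28 (SE 0.22, limma adjusted p = 1.33e-05) for acidity. GLYMA_16G173000 had the largest rise from acidity on water deficit, at 5.90 (SE 0.13, limma adjusted p = 1.11e-28).

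The next question was whether salinity and acidity again acted together beyond their separate effects when a further stress was present. This interaction is the difference made by salinity with acidity present minus the difference made by salinity without it, inside a fixed background, and it used no library of the pair itself. In the water deficit background the sign was opposite to the pattern by which the genes were chosen. There 134 of the 150 genes had a negative interaction and 1 a positive one, with a median of -1.92 (-0.11 over all tested features), while 29% of all tested features were called negative and 15.5% positive. In the low phosphate background 130 genes had a negative interaction, with a median of -1.26 (-0.15 over all tested features), while 32.9% of all tested features were called negative. No positive call was made there by limma at the adjusted threshold (1 gene at an unadjusted p under 0.05), against 17.1% of all tested features. In both backgrounds 124 genes were negative, and the share of all tested features negative in both was not computed.

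The levels behind these values show what the 3-stress combinations did. With salinity, acidity and water deficit, 82 genes were higher and 3 lower than with salinity and water deficit (5.26% and 3.15% of all tested features), while 19 were higher and 18 lower than with acidity and water deficit (4.93% and 14.1%), and 15 exceeded both pairs (1.15%) while 1 lay below both (1.38%). With salinity, acidity and low phosphate, 122 genes were higher and 2 lower than with acidity and low phosphate (11.8% and 24.9%), while 12 were higher and 53 lower than with salinity and low phosphate (4.99% and 17.6%), and 12 exceeded both pairs (4.38%) while 2 lay below both (14.9%). The counts above both pairs depended on single replicates and on the fit. Without replicate 1, 2 or 3 they were 10, 9 and 8 with water deficit and 8, 7 and 11 with low phosphate, and median-ratio scaling gave 28 and 27. Fitting only the compared groups gave 29 with water deficit. The counts against the higher pair depended on library scaling. Median-ratio scaling gave 35 genes higher and 13 lower than with acidity and water deficit, and 27 higher and 42 lower than with salinity and low phosphate.

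GLYMA_15G062700 had the most negative interaction in the water deficit background. It was at 27.5, 24.3 and 30.4 FPKM with salinity, acidity and water deficit, against 55.9, 50.9 and 60.3 FPKM with salinity and water deficit, 46.5, 45.4 and 42.9 FPKM with acidity and water deficit, and 1.10, 0.0990 and 0.414 FPKM with water deficit alone. The 3-stress libraries lay below every library of the 2 pairs and above those of water deficit alone, and the interaction was -5.95 (SE 0.26, limma adjusted p = 3.57e-19). GLYMA_14G171700 had the next most negative value. It was at 47.5, 50.8 and 48.8 FPKM with the 3 stresses, against 40.0, 40.1 and 38.4 FPKM with salinity and water deficit, 49.3, 48.0 and 50.4 FPKM with acidity and water deficit, and 0.243, 0.217 and 0.199 FPKM with water deficit alone, an interaction of -5.06 (SE 0.11, limma adjusted p = 2.86e-28). The 3-stress libraries overlapped those of acidity and water deficit and lay above those of salinity and water deficit.

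The single positive call in the water deficit background was GLYMA_07G144100. It was at 73.0, 71.2 and 76.8 FPKM with the 3 stresses, against 2.01, 2.03 and 2.29 FPKM with salinity and water deficit, 6.15, 5.72 and 6.63 FPKM with acidity and water deficit, and 2.84, 2.78 and 2.90 FPKM with water deficit alone. Its interaction was 3.69 (SE 0.13, limma adjusted p = 2.57e-22). On low phosphate the same gene went the other way. It was at 1.52, 1.65 and 1.69 FPKM with salinity, acidity and low phosphate, against 13.3, 12.8 and 14.0 FPKM with salinity and low phosphate, 7.27, 7.16 and 6.17 FPKM with acidity and low phosphate, and 1.59, 1.83 and 1.50 FPKM with low phosphate alone, an interaction of -4.03 (SE 0.13, limma adjusted p = 2.20e-23).

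GLYMA_08G085600 had the most negative interaction in the low phosphate background, at -4.27 (SE 0.27, limma adjusted p = 1.14e-14). It was at 47.4, 52.7 and 51.2 FPKM with salinity, acidity and low phosphate, against 38.9, 43.5 and 43.1 FPKM with salinity and low phosphate, 38.6, 37.1 and 18.8 FPKM with acidity and low phosphate, and 0, 0.265 and 0.902 FPKM with low phosphate alone. The 3-stress libraries were the highest, but by far less than the sum of the separate rises on the log2 scale.

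When water deficit and low phosphate were both present, the interaction had the sign of the original pattern. There 109 of the 150 genes had a positive interaction and 1 a negative one, with a median of 1.07 (0.06 over all tested features), while 11.4% of all tested features were called positive and 6.94% negative. The 4-stress combination was above both of the 3-stress combinations that lacked acidity or salinity in 132 genes (10.4% of all tested features lay above both and 3.46% below both). It was above the combination without acidity in 132 genes, by a median of 1.15 (12% of all tested features higher and 13% lower), and above that without salinity in 142 genes, by a median of 2.11 (41.8% and 7.69%). The 4-stress leaves also exceeded those without low phosphate in 128 genes (8.49% and 4.77%) and those without water deficit in 130 genes (25.5% and 11.2%).

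The difference between backgrounds was itself tested, as a contrast added after the data were seen. The interaction was more positive with water deficit and low phosphate together than with water deficit alone in 139 of the 150 genes, by a median of 3.14, while 23.1% of all tested features were called in that direction and 10.7% in the other. Against the low phosphate background it was more positive in 141 genes, by a median of 2.45, while 25.7% of all tested features were and 10.3% were the reverse. GLYMA_07G144100 was called in the opposite direction, at -2.90 (SE 0.18, limma adjusted p = 4.55e-15), in the first of these comparisons. In 94 genes the interaction was negative in both of the simpler backgrounds and positive in the combined one. The share of all tested features with these 3 calls together was not computed. The plot of the 3 distributions shows a shift across 0.

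**Figure D3:**
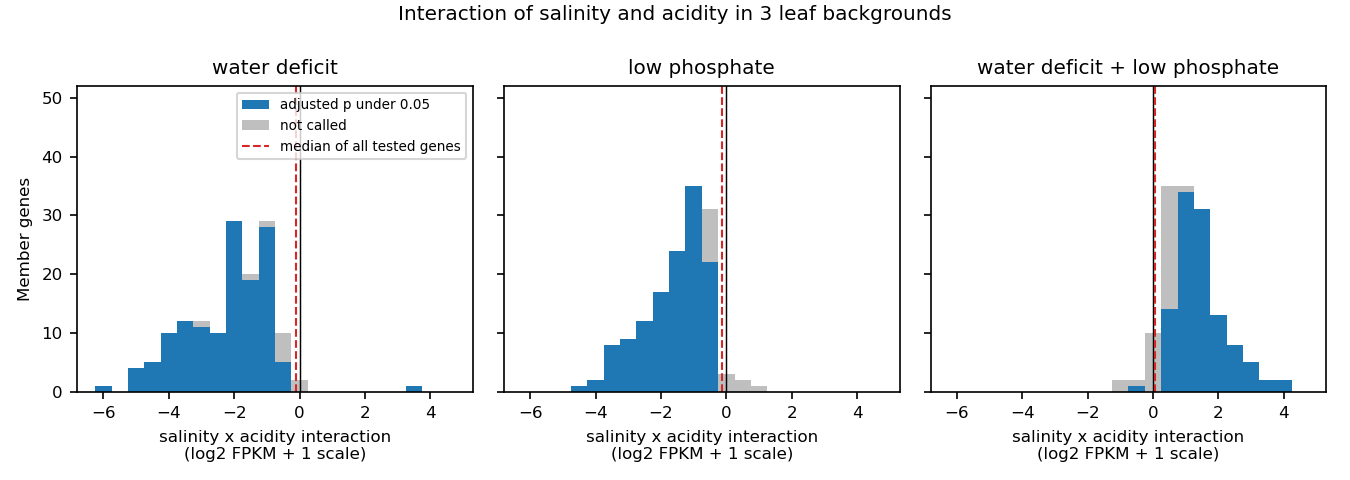
Interaction of salinity and acidity for the 145 tested genes in 3 leaf backgrounds, on the log2(FPKM + 1) scale, as the number of genes per interval of 0.5. Called genes are blue, other genes grey, and the dashed line is the median of all tested features; medians of the members are -1.92, -1.26 and 1.07.

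GLYMA_01G127200 had the largest positive interaction in the combined background, at 4.10 (SE 0.14, limma adjusted p = 7.72e-21). It was at 50.9, 47.4 and 50.8 FPKM with 4 stresses, against 11.6, 9.21 and 7.85 FPKM without acidity, 3.59, 3.76 and 3.69 FPKM without salinity, and 16.1, 16.2 and 14.4 FPKM with water deficit and low phosphate alone. The combinations lacking either stress lay below the pair they contained, and the 4-stress leaves above it, with no overlap. GLYMA_03G044900, of rank 3, had the largest rise of the 4-stress leaves over those without acidity. It was at 24, 25 and 34.0 FPKM with 4 stresses, against 0.891, 1.87 and 0.924 FPKM without acidity and 0.393, 0.277 and 1.05 FPKM without salinity, differences of 3.70 (SE 0.17, limma adjusted p = 8.28e-18) and 4.20 (SE 0.17, limma adjusted p = 5.41e-20). The negative call was GLYMA_07G139700, at -0.44 (SE 0.13, limma adjusted p = 0.0139), which was lost without replicate 1 (adjusted p = 0.137) and without replicate 2 (adjusted p = 0.104).

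Of the 14 treatments not used for the choice, the 5-stress combination had the highest mean in 81 of the 150 genes and the 4-stress combination in 66. The share of all features with these maxima was not computed. The other 3 genes were named for a maximum elsewhere, by narrow margins on the log2(FPKM + 1) scale. GLYMA_05G167000 had 2.14 with acidity and water deficit against 2.11 with 4 stresses. GLYMA_08G180600 had 2.67 with salinity and water deficit against 2.60 with 5 stresses. GLYMA_09G053300 had 3.85 with salinity, acidity and low phosphate against 3.79 with 4 stresses. GLYMA_05G167000 varied within groups, at 2.94, 1.72 and 6.95 FPKM in its highest treatment.

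With cadmium on top of the 4 stresses genes were called in both directions. Of the 150, 61 were higher and 45 lower in the 5-stress than in the 4-stress leaves, with a median difference of 0.03 (0.05 over all tested features), and 28.5% of all tested features were called higher and 24% lower. All tested features were thus called in both directions too, and the members' lower count is near the background share. With median-ratio scaling they were 53 and 48.

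The largest rise was in GLYMA_03G247500, at 175, 179 and 174 FPKM with 5 stresses, against 5.73, 5.95 and 6.66 FPKM with 4, a difference of 4.64 (SE 0.21, limma adjusted p = 7.50e-19). Cadmium alone left it at 2.86, 1.81 and 1.16 FPKM, below every 4-stress library. In the salinity and acidity leaves it was at 83.6, 85.8 and 74.9 FPKM. GLYMA_13G278000 was at 70.9, 63.5 and 66.0 FPKM with 5 stresses, against 2.31, 2.32 and 1.82 FPKM with 4, a difference of 4.43 (SE 0.13, limma adjusted p = 2.98e-24). It was listed at 0 in the 3 libraries of cadmium alone. This gene was also the only member whose mean with acidity and water deficit, at 13.6, 19.7 and 18 FPKM, exceeded that with salinity and acidity, at 11.8, 16.9 and 17.0 FPKM, although the 2 groups overlapped.

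The largest fall was in GLYMA_07G144100, at 37.3, 38.9 and 37.5 FPKM with 5 stresses, against 236, 236 and 219 FPKM with 4, a difference of -2.57 (SE 0.09, limma adjusted p = 5.22e-22). Cadmium alone gave 91.6, 88.2 and 102 FPKM, the highest level of any single stress for this gene. GLYMA_15G159900 was at 7.02, 3.76 and 5.88 FPKM with 5 stresses, against 20.8, 25.2 and 25.8 FPKM with 4, a difference of -1.96 (SE 0.20, limma adjusted p = 4.40e-10). With cadmium alone it was at 13.2, 14.3 and 6.65 FPKM.

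The direction with 5 stresses ran against the level under cadmium alone, which the contrast did not use. The 61 genes that rose with cadmium on top of 4 stresses had a median level of 1.11 on the log2(FPKM + 1) scale under cadmium alone, 0.46 above the mean of water deficit alone and low phosphate alone. The 45 genes that fell had a median of 3.16 under cadmium alone, 2.54 above that mean. Cadmium alone lay at least 1 above it in 15 of the 61 and in 36 of the 45. Over the 145 tested genes, the level under cadmium alone above that mean and the difference of 5 from 4 stresses had a Pearson r of -0.62 and a Spearman rho of -0.63. These are values across genes of the same libraries, which are not independent replicates. The counts and correlations were not computed over all tested features, so whether the relation is particular to these genes was not tested. The genes that fell were also the higher ones with 4 stresses, with a median of 4.61 against 3.35 for those that rose.

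**Figure D4:**
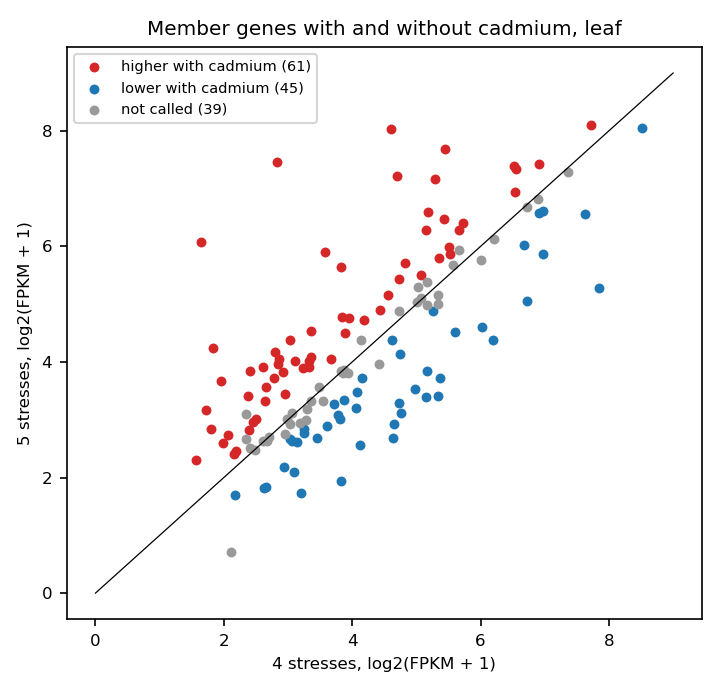
Group mean of each of the 145 tested genes in 5-stress leaves (vertical axis) against 4-stress leaves (horizontal axis), on the log2(FPKM + 1) scale, with the line of equality. The 61 genes called higher with cadmium lie above the line and the 45 called lower lie below it.

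In these identifiers the digits before G number the chromosome and the digits after it run along the chromosome, and the 150 genes fell on all 20 chromosome numbers, with 17 on chromosome 7, and 1 on an unplaced scaffold. Of the 150, 48 genes stood in 17 runs in which neighbouring members were at most 5 listed identifiers apart, and 35 genes (23.3%) had a member as an adjacent listed identifier, on either side. No expected number was computed. Genes in such runs can be close copies of each other, and how the authors divided reads between similar genes is not given in the sources used here, so values within a run may not be independent.

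The 4 runs of at least 4 members are described by their calls, and differences between runs were not tested. Over all 150 genes, 134 had a negative interaction in the water deficit background and 109 a positive one in the combined background. With cadmium on top of 4 stresses 61 of the 150 rose and 45 fell (28.5% and 24% of all tested features). The run from GLYMA_07G243500 to GLYMA_07G243900 held 4 members of 5 identifiers, among them both of the highest scores, and all 4 had a negative interaction in the water deficit background and a positive one in the combined background. With cadmium on top of 4 stresses 3 of them rose and 1 fell. The run from GLYMA_13G173300 to GLYMA_13G173600 held 4 members in 4 identifiers with the same pair of calls, of which 3 rose and 0 fell with cadmium on top of 4 stresses. GLYMA_13G173500 was its highest member, at 167, 190 and 170 FPKM with salinity and acidity. In the run from GLYMA_15G159300 to GLYMA_15G160000 all 5 members had a negative interaction in the water deficit background. Of these, 1 had a positive one in the combined background, and all 5 fell with cadmium. The run from GLYMA_17G030000 to GLYMA_17G030400 held 5 members in 5 identifiers, of which 2 rose and 1 fell with cadmium. In this run 4 members had a negative interaction in the water deficit background and 4 a positive one in the combined background. Its member GLYMA_17G030400 was not tested. Across the 14 treatments not used, the median over runs of the members' median pairwise Pearson r was 0.95, against a median of 0.86 over all pairs of the 150 genes, as a description over group means.

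The features whose pattern over the 14 treatments was most like that of GLYMA_07G243700 were GLYMA_07G243500 (Pearson r 0.995), GLYMA_12G207400 (r 0.981), which is rank 30 of the list, and GLYMA_03G024500 (r 0.978), which lies just outside it. GLYMA_07G243700 itself was at 160, 156 and 168 FPKM with 5 stresses and 80.3, 96.0 and 103 FPKM with 4, against 15.8, 12.1 and 16.2 FPKM with salinity, acidity and water deficit.

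The 5 members with a mean under 1 FPKM in the 14 treatments were not tested. Among them GLYMA_02G028600, rank 28, came closest to a rise in the salinity and acidity pair alone. It was at 22.6, 8.81 and 20.5 FPKM there, against 0.822, 0.866 and 4.56 FPKM with 5 stresses, and every other leaf library was at or under 2.42e-04 FPKM. Values that small are far below what 1 read is worth, so they are estimated shares of reads and not reads counted for this gene, and the level in the pair carries the same uncertainty.

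In flowers the question was whether the same genes responded to the same pair of stresses in another organ. Of the 150 genes, 105 averaged 1 FPKM or more over the flower libraries and were tested, among 33792 features. In salinity and acidity flowers 27 of the 150 genes were higher than in control flowers and 4 lower, with a median difference of 0.25 (0.03 over all tested features), while 6.68% of all tested features were called higher and 3.6% lower. The flower median over members was 1.92 with salinity and acidity and 1.63 in control flowers on the log2(FPKM + 1) scale. The flower interaction of salinity and acidity was positive in 1 of the 150 genes, GLYMA_17G242400, and negative in 3, against 0.914% and 0.929% of all tested features. Against salinity alone 6 genes were higher and 2 lower (2.47% and 2.73%), and against acidity alone 2 were higher and 1 lower (0.651% and 0.465%). These flower comparisons have no tested counterpart in leaves, because the leaf levels of the pair, its parts and control chose the genes. A difference between the organs was therefore not tested.

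None of the 3 genes with the highest leaf scores was called in flowers. GLYMA_07G243700 had 3.61, 3.62 and 3.32 FPKM in salinity-acidity flowers, against 3.92, 3.85 and 2.90 FPKM in control flowers, which did not pass (SE of the difference 0.45, limma adjusted p = 1.00). The groups overlapped, and its level in flowers ranged up to 7.54 FPKM, in a cadmium library. GLYMA_07G243500 differed by -0.22 (SE 0.35, limma adjusted p = 0.787) and GLYMA_03G044900 by -0.35 (SE 0.26, limma adjusted p = 0.481).

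The largest flower rise was in GLYMA_10G010100, at 28.3, 27.0 and 28.2 FPKM with salinity and acidity, against 3.91, 6.22 and 2.29 FPKM in control flowers, a difference of 2.56 (SE 0.24, limma adjusted p = 4.48e-10). Salinity alone gave 13.6, 10.8 and 15.9 FPKM and acidity alone 13.9 and 18 FPKM, so the parts were already above control. GLYMA_17G030100 was at 23.1, 26.9 and 31.1 FPKM with salinity and acidity, against 7.36, 7.20 and 7.03 FPKM in control flowers, a difference of 1.77 (SE 0.22, limma adjusted p = 2.28e-07). The largest flower fall was in GLYMA_03G109900, at 13.2, 12.4 and 12 FPKM with salinity and acidity, against 23.2, 27.5 and 28.1 FPKM in control flowers, a difference of -1.01 (SE 0.13, limma adjusted p = 8.47e-07). Neither salinity, at 23.7, 28.0 and 31.7 FPKM, nor acidity, at 32.2 and 28.8 FPKM, gave such low levels in flowers, and the flower interaction was -1.29 (SE 0.20, limma adjusted p = 1.01e-04). In leaves the same gene was at 78.8, 78.0 and 78.4 FPKM with salinity and acidity, against 7.93 and 6.49 FPKM in control leaves. The values of the 2 organs come separately, and how they were scaled to each other is not given in the sources used here. Levels are therefore compared only within an organ.

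**Figure D5:**
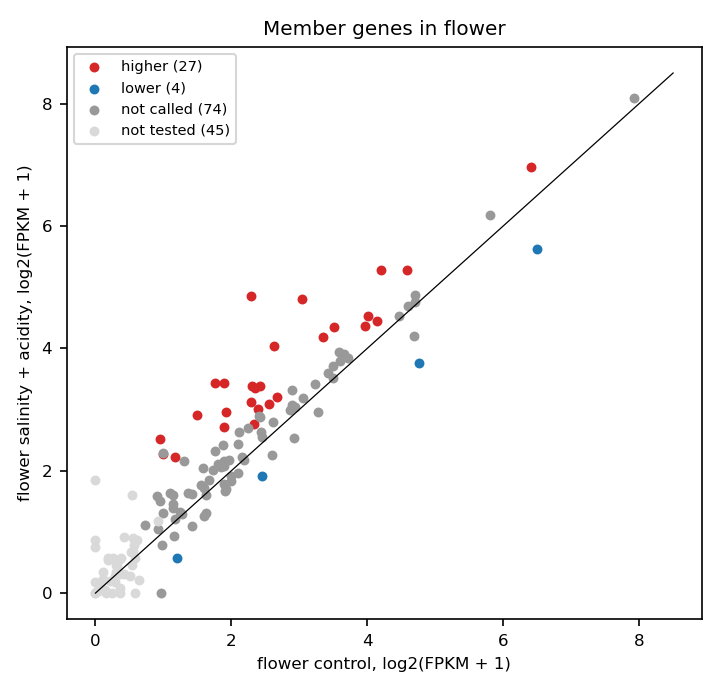
Group mean of each of the 150 genes in salinity and acidity flowers (vertical axis) against control flowers (horizontal axis), on the log2(FPKM + 1) scale, with the line of equality. Of the 105 tested genes 27 were called higher and 4 lower; the other 45 were not tested.

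With 4 stresses, 8 of the 150 genes were higher and 1 lower than in control flowers (2.27% and 1.21% of all tested features), and with 5 stresses 32 were higher and 3 lower (11.4% and 6.22%). These comparisons share the control libraries with that of the salinity and acidity pair. The count of 27 fell to 14 without replicate 2 and to 16 without replicate 3 of every group.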

How the data were processed

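RNA-seq was measured in leaves and flowers of 18 treatments (108 labelled samples). The deposited values are FPKM, computed by the authors; HISAT2 2.2.1 is named per the submitters' processing notes, and the counting tool, genome build and annotation are not given in the sources used here. Sequencing was paired-end on a NovaSeq instrument per the labels. Columns were assigned to samples by treatment code and replicate number. Features averaging 1 FPKM or more over the libraries fitted were tested on log2(FPKM + 1) with limma 3.58.1 (R 4.3.3; trend and robust empirical Bayes), in 1 fit over the 42 leaf libraries of the 14 treatments that the choice of genes did not use and 1 over the 51 flower libraries, with Benjamini-Hochberg adjustment over all features tested. Python 3.11.15 with numpy 2.4.6 was used for tables and matplotlib 3.10.9 for plots. Each fit was tested on simulated data.

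The members, lists and contrasts were chosen with earlier results of these data known. A column was taken as an average when at least 90% of its values above 0 equalled the mean of the group's other columns within a relative tolerance of 1e-05. The rule for named genes covered the 12 highest scores, the 3 largest called rises and falls in each interaction, in 5 against 4 stresses and in flowers, and the scores next to the end of the list. Because the identifiers have no names, at most 2 rises and 2 falls a comparison are printed, and keyword lists could not be applied. Other genes named, such as GLYMA_16G173000, GLYMA_05G167000, GLYMA_02G028600 and GLYMA_13G173500, were chosen after their values were seen. Relative depth was not estimated in flowers. The alternatives tried were pseudocounts of 0.1 and 0.5, other filters, median-ratio scaling, fits without trend and robust, fits of the compared groups only, leaving out each replicate number, a replicate block and, in flowers, counting the averaged columns.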

Additional observations from a re-analysis of the deposited data

Results flagged for a closer look

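The interaction of salinity and acidity in leaves differed between backgrounds for most of the 150 genes. It was higher with water deficit and low phosphate together than with water deficit alone in 139 genes (23.1% of all tested features). Against low phosphate alone it was higher in 141 genes (25.7%). The reverse was called in 10.7% and 10.3% of all tested features. These calls are limma tests of the difference itself at an adjusted p under 0.05. GLYMA_15G062700 had the largest such difference against the water deficit background, at 9.38 (SE 0.36, limma adjusted p = 3.55e-20) on the log2(FPKM + 1) scale. In the combined background it was at 36.6, 34.9 and 43.6 FPKM with all 4 stresses, against 11.9, 16.7 and 10.9 FPKM without acidity, 5.89, 3.70 and 5.41 FPKM without salinity, and 22.6, 20.7 and 21.9 FPKM with water deficit and low phosphate alone. All groups compared here had 3 libraries, too few for a check of single outlying libraries within a group. Leaving out each replicate number in turn gave 135 to 137 genes against the water deficit background. Against the low phosphate background it gave 131 to 138.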

How the results depend on the processing

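No named gene's value changed direction under the alternatives run, and 257 alternative counts of members, or of members shared with the list, stayed within 1.5 times the value reported while 30 did not. In the low phosphate background the count of positive interactions (none reported) was 2 with a pseudocount of 0.1, 1 with 0.5, 1 with median-ratio scaling and 0 to 2 without single replicate numbers. The count above both pairs with salinity, acidity and water deficit (15 reported) was 8 with a pseudocount of 0.1, 28 with median-ratio scaling, 29 when only the compared groups were fitted and 8 to 10 without single replicate numbers. With salinity, acidity and low phosphate (12 reported) it was 7, 27 with that scaling and 7 to 11. The rise of water deficit with low phosphate over water deficit covered 69 genes instead of 106 when only these groups were fitted, with 83 members tested. The negative call in the combined background was 0 to 1 without single replicate numbers.

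In flowers, leaving out single replicate numbers gave 14 to 21 genes higher and 2 to 4 lower with salinity and acidity than in control, and 0 to 2 positive and 0 to 4 negative interactions. Positive flower interactions numbered 2 with median-ratio scaling, 3 in a fit of the compared groups and 4 with the averaged columns counted, and negative ones 8 in the fit of the compared groups and 7 with those columns. The list shared 84 genes under a pseudocount of 0.1 in the score, and 140 to 144 without single salinity and acidity replicates. The cause of these changes was not tested. For named genes 253 alternative values kept direction and call, and 5 lost the call, all without 1 replicate number.

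The median correlation of deviations showed no pairing by replicate number. Over 273 same-numbered leaf pairs it was 0.00392, against -0.00232 for differently numbered pairs. Over 411 same-numbered flower pairs it was 0.000174, against 0.00189. Of the same-numbered pairs, 10 in leaves and 21 in flowers exceeded 0.1, with maxima of 0.312 and 0.300. Differently numbered pairs over 0.1 were not counted, so these counts cannot be judged. With a replicate block the count of positive interactions in the combined background was 110 and that of flower rises 27, and the block changed no count by more than 1.5 times. Median-ratio scaling moved the median of all features by 0.12 in both simpler interactions, to 0.01 in the water deficit background and -0.03 in the low phosphate background. It also turned the sign of that median in 5 against 4 stresses, to -0.02. FPKM without read totals limits the low genes.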
